A study of Mus musculus with 2 samples.

Results

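The genes described are the collagens, the family of triple-helical proteins that form most of the fibrous matrix between cells and the scaffold of basement membranes. Members were all gene probes whose accession maps to a symbol made of Col, a type number, the letter a and a chain number. This rule used no measured values, but the family and the gene lists below were chosen with earlier results of these data known. The rule gave 44 genes on 64 probes, of 39408 gene probes in all. Of these, 39 were well above background and were tested, among 21337 genes tested. The other 5, Col4a3, Col6a5, Col10a1, Col19a1 and Col28a1, were not well above background and are not described further.

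Each collagen molecule winds 3 chains, of the same or of related genes, into a rod. Fibrillar collagens (types I, II, III, V, XI, XXIV and XXVII) build the banded fibres that resist stretch, and FACIT collagens sit on the surface of these fibres. Type IV forms the network of basement membranes, with types XV and XVIII at its edge, type VI forms beaded filaments near cells, and types XIII, XVII, XXIII and XXV span the cell membrane. In the young ureter a mesenchymal coat surrounds an epithelial tube, and the coat gives rise to smooth muscle and to collagen-producing connective tissue.

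Ureters of wildtype NMRI mouse embryos of mixed sex were dissected at E12.5 and kept in culture for 18 h. The medium held 10 µg/ml NOGGIN, an antagonist released by cells that captures bone morphogenetic proteins and so blocks their signal, or no NOGGIN. RNA of 1 control and 1 NOGGIN culture was hybridised to each of 2 Agilent arrays, with the Alexa dyes exchanged between them. A whole explant was measured, so fewer cells of a type and less RNA per cell cannot be told apart, and the labels do not say how many ureters were pooled or whether replicates were separate dissections. The p-values therefore rest on the spread between these 2 arrays, drawn for each gene towards a spread shared by all genes tested. The shared spread had the greater weight, with 4.12 prior against 1 residual degrees of freedom. Between 67.3% and 74.3% of gene spots were well above background and 0 were saturated. All 9 markers of ureteric mesenchyme and all 11 of urothelium that were looked up were above background.

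All values below are log2 values after background correction and normalisation within each array. A ratio is the NOGGIN-labelled over the control-labelled channel, given as the mean ± SD of the 2 arrays, and its adjusted p is from limma with the Benjamini-Hochberg correction over all genes tested. "Higher" and "lower" follow the dyes in the labels, and this direction is not settled. The signed folds in the authors' deposited table had the opposite sign to the labels for all 39 collagens on both arrays. The genes used to look at the direction were Id2 and Smad9, which respond to bone morphogenetic proteins, and Acta2, smooth muscle actin. By the labels they had ratios of 2.73, 2.37 and -1.16, and in the authors' deposited table signed folds of -4.19 and -10.5, -5.26 and -6.74, and 2.30 and 2.22. If bone morphogenetic proteins raise Id2 and Smad9, a block would lower both. That is their sign in the deposited table, and not by the labels. Acta2 had the other sign in each. Turning the sign exchanges the words higher and lower, and their counts, throughout, and leaves the sizes and p-values as they are.

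By the labels, collagen transcripts were mostly lower with NOGGIN. Of the 39 tested, 19 were lower at an adjusted p under 0.05, where 4.03% of all genes tested were, and 3 were higher, where 3.95% were. In both directions together this was 22 of 39 collagens against 7.97% of all genes. Of the 22, 21 were well above background in both conditions on both arrays. The other, Col6a4, entered through the control channels, in which it was brighter. With the filter on both channels of both arrays, 18 collagens passed as lower and 3 as higher, where 1617 of 20409 genes passed. The median ratio of the collagens was -0.42 (-0.35 on replicate 1 and -0.48 on replicate 2), and that of all genes 0.00083. Collagen probes are bright, so the 7495 genes at or above their median intensity were counted as well, of which 1.97% were called higher and 2.41% lower. Without a model, 11 collagens were at least 1.5-fold lower on both arrays, against 1.55% of all genes, and 2 were at least 1.5-fold higher, against 1.35%. Control and NOGGIN values did not overlap for 33 of the 39, among them all 22 called, but 51.3% of all genes had no overlap either. With median centring in place of loess, 0 genes passed (25 collagens had an unadjusted p under 0.05, and 29 with loess), and 33 of the 39 collagens were below 0. With the values of the authors' deposited table, the calls of Col1a2, Col2a1, Col5a2, Col20a1, Col24a1 and Col27a1 were lost (adjusted p from 0.0534 to 0.0770, limma).

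**Figure D1:**
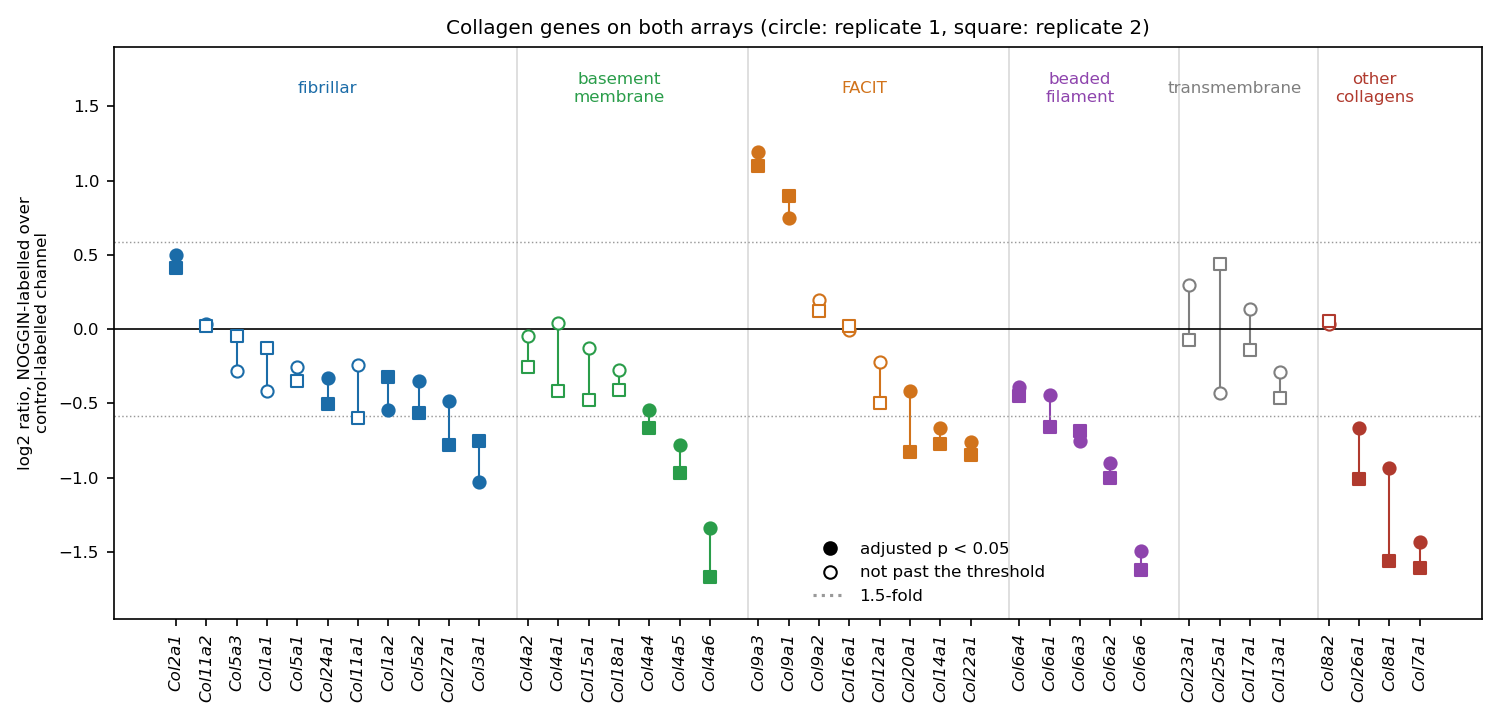
Log2 ratio of the NOGGIN-labelled over the control-labelled channel (vertical axis) for the 39 collagen genes tested, grouped by class. Circles are replicate 1, squares replicate 2 and the line joins them; filled symbols passed an adjusted p of 0.05 and dotted lines mark 1.5-fold. All 5 type VI genes lie below 0 and are filled, though Col6a4 entered through the control channels. The 3 filled genes above 0 are Col2a1, Col9a1 and Col9a3.

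The arrays ranked the collagens alike. Across the 39 genes the ratios of the arrays correlated with r = 0.91 (Pearson) and rho = 0.85 (Spearman), against r = 0.70 over all genes, and these genes share the same RNA and slide. Of the 39, 28 were below 0 on both arrays, 6 were above 0 on both and 5 changed sign. The median SD between arrays was 0.13 for the collagens and 0.085 for all genes.

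Of the type VI genes, the 5 that were tested passed as lower, with a median of -0.72 and a range of -1.55 to -0.42. Col6a4 entered through the control channels, in which it was brighter, and without it the median was -0.83 over the genes above background in both channels. Col6a1 and Col6a2, which assemble with a longer chain into the beaded filament, are neighbours in the RefSeq gene table. Col6a2 read 11.69 and 11.93 in the controls and 10.79 and 10.93 with NOGGIN, a ratio of -0.95 ± 0.070 (adjusted p = 0.00594, limma). Col6a1 read 15.45 and 15.71 in the controls and 15.00 and 15.05 with NOGGIN, a ratio of -0.55 ± 0.15 (adjusted p = 0.0267, limma). Both cultures of each condition stood apart from the other condition. Col6a3, the common long chain, read 15.49 and 15.60 in the controls and 14.74 and 14.92 with NOGGIN, a ratio of -0.72 ± 0.046 (adjusted p = 0.00961, limma).

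The remaining type VI chains can take the place of the Col6a3 product in the molecule. Col6a6 read 9.06 and 9.55 in the controls and 7.57 and 7.93 with NOGGIN. Its ratio of -1.55 ± 0.091, 2.94-fold, was the lowest of the family (adjusted p = 0.00338, limma). Its other probe was left out as not above background in enough channels and had -0.42. Col6a4 was dim, with 7.09 and 7.03 in the controls and 6.70 and 6.58 with NOGGIN, and its NOGGIN signal was well above background on 1 of the 2 arrays. Its ratio was -0.42 ± 0.043 (adjusted p = 0.0356, limma), and the size depended on the background correction, with -0.75 at a normexp offset of 0 and -1.40 from Agilent's processed signals. The other probe of Col6a4 was left out as not above background and had -0.04.

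Of the type IV genes, Col4a5 and Col4a6 passed as lower, and Col4a1 and Col4a2 did not pass. These genes lie in the genome as pairs that start near each other on opposite strands, and chains of a pair assemble together. The network of Col4a1 and Col4a2 is found in nearly all basement membranes, and that of Col4a5 and Col4a6 in, among others, those around smooth muscle. Col4a6 read 12.45 and 12.65 in the controls and 11.10 and 10.98 with NOGGIN, a ratio of -1.51 ± 0.23, 2.84-fold (adjusted p = 0.00437, limma). Col4a5 read 13.88 and 14.07 in the controls and 13.11 and 13.10 with NOGGIN, a ratio of -0.87 ± 0.13, 1.83-fold (adjusted p = 0.00828, limma). For both genes the 2 NOGGIN values lay below the 2 control values by more than the gap within either condition. Col4a1 read 14.82 and 14.95 in the controls and 14.86 and 14.53 with NOGGIN, so its conditions overlapped, and its ratio was -0.19 ± 0.32 (95% interval -0.51 to 0.13, adjusted p = 0.437, limma). Col4a2 had -0.15 ± 0.15 (95% interval -0.37 to 0.07, adjusted p = 0.376, limma). The difference between the pairs was not tested.

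The promoter windows of the pairs are shown because the genes of a pair start close to each other and had the same call. The windows are from RefSeq, build GRCm38.p6, the 250 bases before the start, 5′ to 3′ on the gene's strand, at chrX:141475169-141475418 for Col4a5 (plus strand) and chrX:141474077-141474326 for Col4a6 (minus strand). Capitals mark a CCAAT box (CCAAT) and a GC box (GGGCGG), on either strand. For Col4a1 and Col4a2 the stretch from start to start spans 22 bases, both starts counted. The plus strand of chr8:11312801-11312830 is given with this stretch in capitals. Col4a1 (minus strand) starts at 11312826 and Col4a2 (plus strand) at 11312805, so by these starts the genes overlap in the capitals.
Col4a5: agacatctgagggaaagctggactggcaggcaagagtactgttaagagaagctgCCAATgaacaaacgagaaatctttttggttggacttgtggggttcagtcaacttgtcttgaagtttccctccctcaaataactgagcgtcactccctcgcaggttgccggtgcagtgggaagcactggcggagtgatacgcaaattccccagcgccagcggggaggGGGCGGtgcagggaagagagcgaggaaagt
Col4a6: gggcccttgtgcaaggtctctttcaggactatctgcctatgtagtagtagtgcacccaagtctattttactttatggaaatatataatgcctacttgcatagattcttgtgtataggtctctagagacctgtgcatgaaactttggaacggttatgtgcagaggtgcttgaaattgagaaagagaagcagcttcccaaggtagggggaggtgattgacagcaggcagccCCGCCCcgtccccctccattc
Col4a1 and Col4a2: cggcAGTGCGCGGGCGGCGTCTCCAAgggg
Col4a5 holds both motifs and Col4a6 the GC box, close to its start. The match is a description of letters and no measure of binding.

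The other basement membrane genes had smaller or dimmer values. Col4a4, a chain of the mature kidney filter, read 8.14 and 8.36 in the controls and 7.60 and 7.69 with NOGGIN, a ratio of -0.60 ± 0.089 (adjusted p = 0.0166, limma). That value comes from its brightest probe, and a second, dimmer probe gave 0.38 ± 0.092, so the direction of Col4a4 depends on the probe. With all probes above background averaged, its ratio was nearer to 0 (-0.11, adjusted p = 0.389, limma). Col18a1, the source of endostatin, read 15.13 and 15.26 in the controls and 14.86 and 14.85 with NOGGIN, a ratio of -0.34 ± 0.097 that did not pass (adjusted p = 0.0694, limma). Its relative Col15a1 had -0.30 ± 0.25 (adjusted p = 0.173, limma). No basement membrane gene passed as higher, 3 of 7 passed as lower, and the class median was -0.34.

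Among the 11 fibrillar genes 5 passed as lower and 1 as higher, with a median of -0.42. Col3a1, which forms thin reticular fibres in distensible organs, had the lowest value. It read 17.99 and 18.21 in the controls and 16.96 and 17.46 with NOGGIN, a ratio of -0.89 ± 0.19, 1.86-fold (adjusted p = 0.0103, limma). Its neighbour in the RefSeq gene table, Col5a2, whose chain starts and limits fibril growth, read 12.81 and 12.91 in the controls and 12.46 and 12.35 with NOGGIN, a ratio of -0.46 ± 0.15 (adjusted p = 0.0423, limma). Neither gene's conditions overlapped. The promoter window of Col3a1 (RefSeq, GRCm38.p6, chr1:45311288-45311537, plus strand) is shown since it alone held a TATA box (TATAAA) among the 15 called-lower collagens with a window. Capitals mark that box and 2 SMAD elements (CAGAC, the second on the other strand).
Col3a1: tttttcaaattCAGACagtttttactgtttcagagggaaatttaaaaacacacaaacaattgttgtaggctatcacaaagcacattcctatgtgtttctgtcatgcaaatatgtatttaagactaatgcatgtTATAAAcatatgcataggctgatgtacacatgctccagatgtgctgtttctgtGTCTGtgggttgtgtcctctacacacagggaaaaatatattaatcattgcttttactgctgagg
SMAD proteins carry the signal of bone morphogenetic proteins and of TGF-beta, and elements this short are found in many windows.

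Type I collagen, the main tensile fibre, has 2 chain genes. Col1a2 read 17.77 and 17.74 in the controls and 17.23 and 17.42 with NOGGIN, a ratio of -0.43 ± 0.16 just past the threshold (adjusted p = 0.0493, limma, and between 0.0384 and 0.529 over the alternatives). Col1a1 read 17.66 and 17.63 in the controls and 17.25 and 17.51 with NOGGIN, a ratio of -0.27 ± 0.21 that did not pass (adjusted p = 0.181, limma). The 95% intervals of the 2 chains, -0.65 to -0.21 and -0.52 to -0.02, overlap, and these data do not show that they differ.

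The remaining fibrillar genes held 2 calls, both lower. Col27a1, known from cartilage, read 12.30 and 12.38 in the controls and 11.82 and 11.60 with NOGGIN, a ratio of -0.63 ± 0.21 (adjusted p = 0.0261, limma). Col24a1, known from developing bone, had -0.42 ± 0.12 (adjusted p = 0.0466, limma). Col5a1, the usual partner of Col5a2, had -0.30 ± 0.070 and did not pass (adjusted p = 0.0870, limma). Col11a1, Col5a3 and Col11a2 had -0.42, -0.17 and 0.03, also short of the threshold.

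The 3 collagens that were higher belong to types II and IX, which are best known as partners in the fibrils of cartilage. Col2a1, the fibrillar chain, read 14.91 and 14.52 in the controls and 15.42 and 14.94 with NOGGIN. Its ratio was 0.46 ± 0.063 (adjusted p = 0.0294, limma). This call was lost in the separate-channel model with the array as a block (adjusted p = 0.187), from Agilent's processed signals (0.0522) and from the deposited table (0.0534). The NOGGIN value of replicate 2 lay barely above the control value of replicate 1. Col9a3, a type IX chain, read 8.38 and 8.16 in the controls and 9.57 and 9.25 with NOGGIN, a ratio of 1.15 ± 0.069, 2.21-fold (adjusted p = 0.00433, limma). Col9a1 read 13.80 and 13.67 in the controls and 14.54 and 14.56 with NOGGIN, a ratio of 0.82 ± 0.11, 1.77-fold (adjusted p = 0.00842, limma). For the type IX genes the conditions lay well apart. A second, dim probe of Col9a1 had -0.05, and the mean of its probes was 0.39 (adjusted p = 0.0397, limma). Col9a2 read 14.30 and 14.31 in the controls and 14.50 and 14.44 with NOGGIN, a ratio of 0.16 ± 0.053 (adjusted p = 0.273, limma). Types II and IX were put together here because they hold the higher collagens, so their 3 calls among 4 genes are no separate result. Over all genes, 3.95% passed as higher. The call of Col2a1 held in 9 of 14 settings. These settings include the main fit at adjusted p thresholds of 0.01 and 0.1. Not all collagens known from cartilage were higher, as Col27a1 passed as lower (-0.63). The type XI genes Col11a1 and Col11a2 had -0.42 and 0.03 and did not pass.

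Col9a1 was the only called-higher collagen with a promoter window, and of its 2 windows the one that held motifs is given (RefSeq, GRCm38.p6, chr1:24194953-24195202, plus strand). Capitals mark 2 SMAD elements (CAGAC) and a CCAAT box. The other window held none of the motifs searched.
Col9a1: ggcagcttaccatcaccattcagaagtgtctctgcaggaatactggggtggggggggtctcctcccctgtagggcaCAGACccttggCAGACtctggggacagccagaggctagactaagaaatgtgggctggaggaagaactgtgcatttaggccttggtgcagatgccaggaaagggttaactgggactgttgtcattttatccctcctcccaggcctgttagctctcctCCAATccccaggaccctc
The SOX element searched (ACAATG) was in the windows of 0 of 15 called-lower, 0 of 1 called-higher and 0 of 15 uncalled collagens, and in 10.7% of all windows.

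Of 12 cartilage marker genes, 8 were above background. Sox9, a transcription factor that drives Col2a1 in cartilage and is present in other tissues too, was higher by 2.22 ± 0.13 (adjusted p = 0.00338, limma) and Hapln1, a link protein, by 1.33 ± 0.026 (adjusted p = 0.00343, limma). The other 6 did not pass, and 3.95% of all genes passed as higher. Acan, the main cartilage proteoglycan, was dim at 6.98 and 7.09 in the controls and 6.98 and 6.98 with NOGGIN. Matn1, Cnmd, Comp and Snorc were not well above background. The log2 of the summed cartilage markers was 15.8 and 16 in the controls and 16.2 and 16.3 with NOGGIN. Most of the sum in the controls came from the brightest member, Sox5, which did not pass (0.11 ± 0.014, adjusted p = 0.432, limma). Sox5 read 15.56 and 15.76 in the controls and 15.67 and 15.88 with NOGGIN. The part of this list in the type II and IX values was not tested.

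FACIT collagens outside type IX were lower or near 0. Col22a1, known from muscle-tendon junctions, read 9.99 and 10.09 in the controls and 9.23 and 9.24 with NOGGIN, a ratio of -0.80 ± 0.059 (adjusted p = 0.00780, limma). Col14a1, which binds the surface of type I fibrils, read 14.74 and 14.89 in the controls and 14.08 and 14.12 with NOGGIN, a ratio of -0.72 ± 0.074 (adjusted p = 0.0103, limma). Its second probe had -0.82, so its probes lay close together. Col20a1 read 9.52 and 9.53 in the controls and 9.10 and 8.70 with NOGGIN, a ratio of -0.62 ± 0.29 (adjusted p = 0.0411, limma). The difference was unequal on the arrays for Col20a1 and nearly equal for Col22a1 and Col14a1. Col16a1, found along with several fibril types, read between 14.99 and 15.01 in all 4 cultures (ratio 0.0082, 95% interval -0.18 to 0.19), and Col12a1, a relative of Col14a1, had -0.36 ± 0.20 (adjusted p = 0.0979, limma). The 8 FACIT genes thus held 2 higher and 3 lower calls, and the class median was -0.18 (0.0082 with no filter on dim probes).

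Of the collagens outside these classes, 3 of 4 passed as lower. Col7a1, which makes the anchoring fibrils that fasten epithelia to the tissue beneath, read 11.28 and 11.46 in the controls and 9.85 and 9.85 with NOGGIN, a ratio of -1.52 ± 0.12, 2.86-fold (adjusted p = 0.00341, limma). Col8a1, a short network-forming chain of vessel walls and the cornea, read 9.0 and 9.01 in the controls and 8.07 and 7.45 with NOGGIN. Its ratio of -1.25 ± 0.44 (adjusted p = 0.0156, limma) was unequal on the arrays, -0.93 and -1.56. Its partner chain Col8a2 read 13.64 and 13.60 in the controls and 13.67 and 13.65 with NOGGIN, a ratio of 0.04 ± 0.014 (95% interval -0.14 to 0.23). The intervals of the 2 type VIII chains do not overlap, but their difference was not tested. Col26a1, a little studied collagen first described in reproductive organs, read 15.01 and 15.26 in the controls and 14.34 and 14.25 with NOGGIN, a ratio of -0.84 ± 0.24 (adjusted p = 0.0156, limma).

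None of the 4 transmembrane collagens passed in the main setting. Col13a1, found at junctions of nerve and muscle, had -0.37 ± 0.13 (adjusted p = 0.0614, limma). It passed as lower in 7 of 14 settings, which count the main fit at a threshold of 0.1. Among the 7 were Agilent's processed signals (-0.73, adjusted p = 0.0153, limma) and the authors' deposited table with its sign turned (-0.73, adjusted p = 0.0246). Col23a1 had 0.11 ± 0.26 and Col17a1, a part of hemidesmosomes, -0.00048 ± 0.19. Col25a1, known from neurons, read 11.57 and 11.75 in the controls and 11.14 and 12.18 with NOGGIN. Its ratios were -0.43 on replicate 1 and 0.44 on replicate 2. Because the dyes were exchanged, the channel of the same dye was the brighter on both arrays. Opposite responses of the replicates therefore cannot be read from this probe, and a dye effect was not tested. Its other probes above background had smaller ratios on replicates 1 and 2: 0.15 and -0.17, -0.01 and -0.12, and -0.16 and -0.09.

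**Figure D2:**
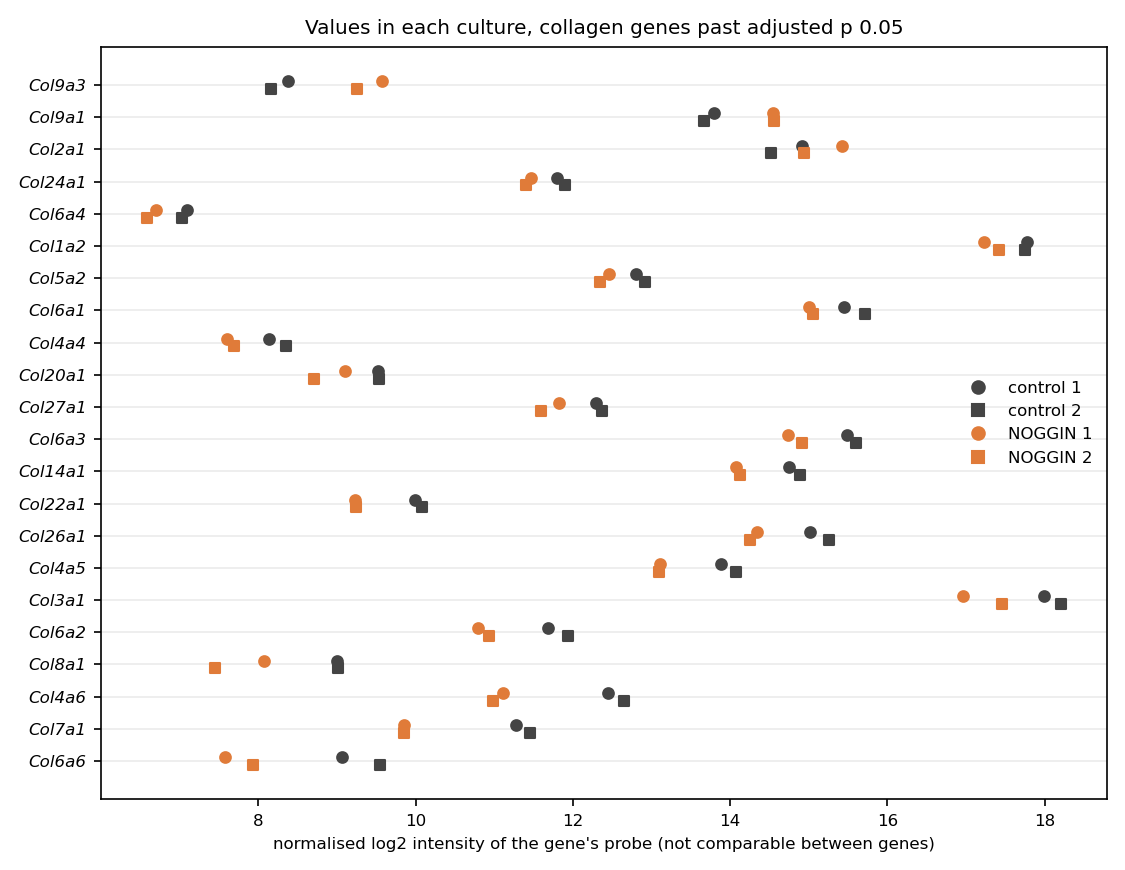
Normalised log2 intensity (horizontal axis) in each culture for the 22 collagen genes past an adjusted p of 0.05, ordered by ratio. Grey symbols are controls and orange ones NOGGIN cultures, circles replicate 1 and squares replicate 2; in every gene the 2 orange symbols lie on one side of the 2 grey ones.

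Several collagen genes were read by more than 1 probe, and the brightest stood for the gene. Of the 14 genes with several probes, 11 had more than 1 above background. In 5 of these all probes had the same sign and in 6 they did not, with a median gap of 0.15 between the highest and lowest probe. For most of the 6 the mean of every probe over the arrays was close to 0, as in Col16a1 and Col23a1. Single arrays could lie further off, as for the brightest probes of Col23a1 (0.30 and -0.07) and Col25a1 (-0.43 and 0.44). The wide gaps were those of Col4a6 (-1.51 and -0.51), Col4a4 (-0.60 and 0.38) and Col9a1 (0.82 and -0.05). Col4a6 was thus lower by both probes, while Col4a4 passed by its brightest probe and not by the mean of its probes. No probe sequence was used here.

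**Figure D3:**
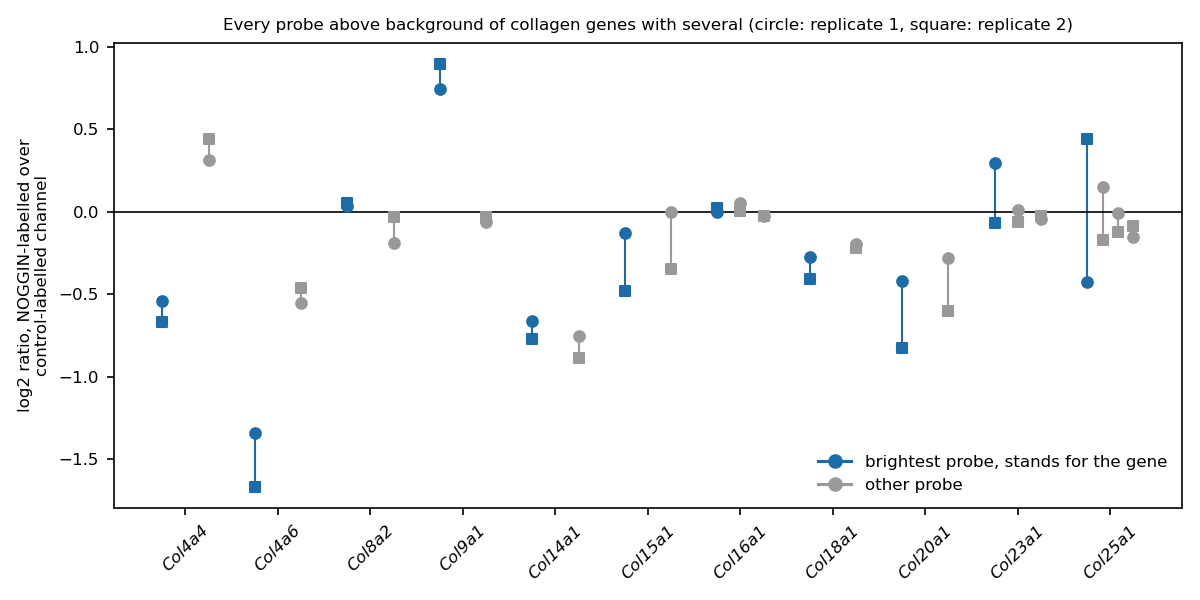
Log2 ratio on both arrays (vertical axis) for every probe above background of the 11 collagen genes with more than 1. Blue is the brightest probe, which stands for the gene, and grey the others; circles are replicate 1 and squares replicate 2. The probes of Col4a4 lie on opposite sides of 0, and the second probe of Col9a1 lies near 0.

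Of the 44 collagen genes, 35 had a promoter window in RefSeq, 16 of the 22 called among them. GC boxes were in the windows of 9 of 15 called-lower and 11 of 15 uncalled genes, and in 32.7% of all windows. The CAGAC element was in 9 of 15 called-lower and 5 of 15 uncalled genes, against 42.2% of all windows, and the GC-rich SMAD element (GGCGCC) in 1 and 3, against 9.59%. CCAAT boxes were in 4 called-lower and 8 uncalled genes, against 33.8%, and TATA boxes in 1 and 3, against 12.4%. All were searched on both strands, and some genes have several windows. These are counts of letters and were not tested.

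Genes that make, trim, bind or degrade collagen did not all follow the collagens. Collagen chains are hydroxylated, glycosylated and folded in the endoplasmic reticulum, and of 20 such genes 3 (15%) passed as lower and 0 as higher, against 4.03% and 3.95% of all genes, with a median of -0.02. The lower ones were Colgalt2 (-1.34 ± 0.27, adjusted p = 0.00632, limma), which adds galactose to hydroxylysine, P3h2 (-0.72 ± 0.056, adjusted p = 0.00986), which hydroxylates proline in basement membrane collagen, and Creb3l1 (-0.45 ± 0.12, adjusted p = 0.0402), a transcription factor of collagen-secreting cells. P4ha3, a prolyl 4-hydroxylase subunit, was next at 0.33 ± 0.24 (adjusted p = 0.144, limma). Serpinh1, the collagen chaperone, picked here after its value was seen, had 0.06 ± 0.060.

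After secretion the ends of fibrillar chains are cut off and the fibrils are crosslinked. Of 14 such genes 13 were tested, 5 passed as lower (38.5%, against 4.03% of all genes) and 1 as higher (7.69%, against 3.95%), with a median of -0.29. Adamts2, which removes the N-terminal propeptide, had a ratio of -1.13 ± 0.085 (adjusted p = 0.00437, limma). Loxl1, a crosslinking oxidase, had -0.84 ± 0.064 (adjusted p = 0.00718, limma), Pcolce, which speeds the removal of the C-terminal propeptide, -0.55 ± 0.035 (adjusted p = 0.0181), and Loxl4 -0.53 ± 0.068 (adjusted p = 0.0212). The last lower gene was Loxl2, and the higher one Pcolce2 (0.52 ± 0.13, adjusted p = 0.0280, limma), both named after their values were seen. Bmp1, the C-propeptide protease, and Lox, likewise picked afterwards, had -0.04 and -0.29 and did not pass.

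Proteins that coat collagen fibrils had the largest share of lower genes among the 6 pathway lists, 8 of 13 tested (61.5%, against 4.03% of all genes), with 1 higher (7.69%, against 3.95%) and a median of -0.47. Aspn, a small leucine-rich proteoglycan, read 10.97 and 11.31 in the controls and 9.44 and 9.57 with NOGGIN, a ratio of -1.64 ± 0.14 (adjusted p = 0.00341, limma). Its relatives Ogn and Kera had -1.32 ± 0.022 (adjusted p = 0.00343, limma) and -1.06 ± 0.24 (adjusted p = 0.00884), and the matricellular Thbs2 -1.07 ± 0.16 (adjusted p = 0.00608). The higher gene was Fmod, another proteoglycan of this family (0.56 ± 0.15, adjusted p = 0.0255, limma), named after its value was seen.

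Basement membrane partners, receptors and degrading enzymes had fewer calls. Of 11 laminin and other partner genes 3 (27.3%, against 4.03% of all genes) passed as lower and 0 as higher (against 3.95%), with a median of -0.18. They were the laminin chains Lama4 (-0.87 ± 0.031, adjusted p = 0.00632, limma), Lama1 (-0.44 ± 0.042, adjusted p = 0.0311) and Lamb1 (-0.45 ± 0.14, adjusted p = 0.0428), and Lamb2 had 0.36 ± 0.063 (adjusted p = 0.0529). Of 8 receptors tested 1 passed (against 4.03% of all genes), Itga11, an integrin chain that binds type I collagen, as lower (-0.75 ± 0.10, adjusted p = 0.0102, limma). The next were Itga1, Ddr1 and Itga10, with -0.24, 0.23 and 0.09, and the receptors' median, 0.03, and mean, -0.08, differ in sign. Of 11 genes of collagen breakdown 2 passed as higher (18.2%, against 3.95%) and 1 as lower (9.09%, against 4.03%), with a median of -0.02 and a mean of 0.03. They were Timp4, an inhibitor of metalloproteinases (1.03 ± 0.036, adjusted p = 0.00474, limma), Mmp19, a metalloproteinase (0.56 ± 0.095, adjusted p = 0.0203), and Ctsk, a collagen-cutting cathepsin (-0.67 ± 0.060, adjusted p = 0.0114). Mmp9 had -0.40 ± 0.33.

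**Figure D4:**
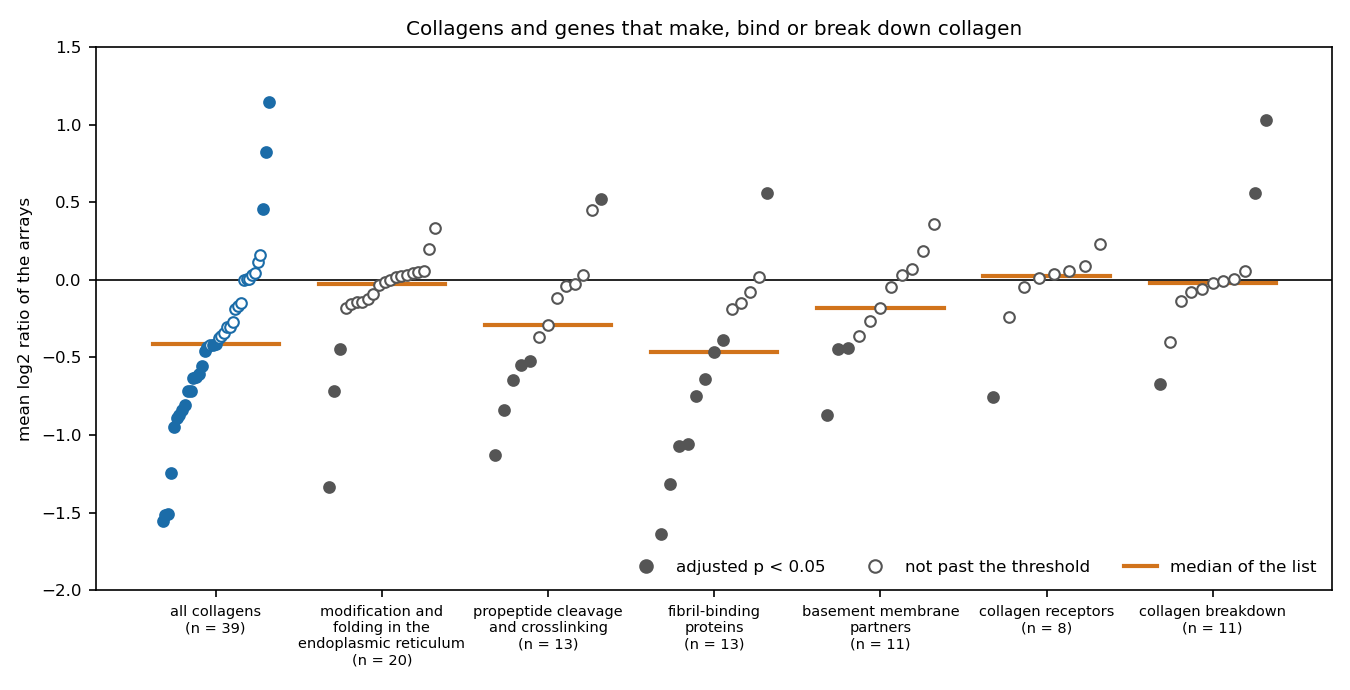
Mean log2 ratio of the 2 arrays (vertical axis) for the 39 collagens and for 6 lists of genes that make, bind or break down collagen, with each list sorted. Filled points passed an adjusted p of 0.05 and the orange line is the list's median, which is -0.42 for the collagens, -0.47 for fibril-binding proteins and -0.02 for modification in the endoplasmic reticulum.

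Among the marker lists of cell types, smooth muscle had the largest share of lower calls. Over all genes, 4.03% passed as lower and 3.95% as higher. Of 9 smooth muscle markers 6 passed as lower and 0 as higher, and the log2 of their summed intensities was 18.96 and 18.93 in the controls and 17.91 and 17.97 with NOGGIN. Of 8 markers of kidney stroma and nephron progenitors, tissue next to the ureter, 4 passed as lower and 0 as higher. The other 4, Eya1, Meis1, Cited1 and Six2, lay above 0 (0.22, 0.11, 0.08 and 0.06). The sums of this list were 17.07 and 17.20 in the controls and 17.08 and 17.03 with NOGGIN. Of 9 markers of ureteric mesenchyme 3 passed as higher and 1 as lower, with sums of 18.56 and 18.66 against 18.21 and 18.30. By sign, 7 of the 9 were above 0, with a median of 0.31. The sum rests largely on the brightest member, Bmp4, the gene called lower. It read 17.89 and 18.05 in the controls and 16.41 and 16.93 with NOGGIN. All members of these lists were above background in at least 1 condition. Lmod1, a smooth muscle marker called lower, entered through the control channels, and its NOGGIN signal was well above background on 1 of the 2 arrays. Myocd, of the same list, lay above 0 (0.15) and did not pass. Among 11 markers of urothelium 2 passed as higher, among 7 of neural crest and glia 1 as lower, and of 8 endothelial and 7 macrophage markers 0 passed. The part of these cells in the collagen values was not tested.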

How the data were processed

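Total RNA (200 ng per culture) was amplified and labelled with Alexa Fluor 555 or 647, per the labels' protocols. Replicate 1 had the control in 647 and NOGGIN in 555, and replicate 2 the reverse. The deposited scanner files hold linear spot intensities which the submitters' processing notes credit to Agilent Feature Extraction, version 10.7.3.1. The log10 ratios per spot are, per the file headers, the software's own and were not used. The authors' deposited table holds a signed fold per probe, read as a score, and no source used here gives its normalisation. The median of either column is 1. Over 10668 bright genes its log2 values had r = -0.98 with the label direction on each array (-0.980 and -0.985), so its scale and columns match the scanner files and its direction is opposite. Which direction is right is unknown.

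Intensities were corrected with normexp (offset 50) and normalised by loess, with control, filler and outlier spots (3.69%) at weight 0. A probe's 4 spots were averaged. Probes stayed in when, in at least 1 condition, both arrays had a share of more than 0.5 of their spots well above background, which left 26712 of 39408, and the brightest kept probe stood for its gene. Probes were named by accession through the RefSeq gene table of GRCm38.p6, and 28313 had a symbol. No source used here gives the files' genome build, so coordinates are printed for RefSeq promoter sequences alone. Ratios were tested with limma 3.58.1 (lmFit, eBayes; R 4.3.3), with 1 residual and 4.12 prior degrees of freedom. The exchanged dyes cancel a dye effect in the mean. Each array holds a control and a NOGGIN culture, so the ratio pairs them. Both arrays lie on 1 slide. The limma fit alone was tried on simulated ratios, drawn from its own fitted variances. Background correction, normalisation, the filter and the choice of probe were not tried in this way. Median signals were 520.7 and 310.6 in the control channels and 288.3 and 531.8 in the NOGGIN channels.

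The genes named were every collagen past the threshold or 1.5-fold on both arrays, up to 2 bright others per class, genes whose probes disagree, up to 4 leading genes of each pathway list, and Id2, Smad9 and Acta2. Further collagens are named to account for the members. Members and lists were chosen with earlier results of these data known.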

Additional observations from a re-analysis of the deposited data

How the results depend on the processing

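With 2 arrays, each value rests on 1 residual degree of freedom. The 22 called collagens kept their sign in each alternative run (21 of them where a probe had to be above background in both channels of both arrays, since the other was not tested there). Tried were normexp with other offsets, Agilent's processed signals, median centring, other filters and summaries, the deposited table with its sign turned, and other forms of the limma test. The other forms of the test used the ratios of the main fit, so no sign could change there. The deposited table was opposite to the labels for all 39 collagens, so turning its sign fixed the signs as well. With median centring in place of loess, 0 collagens passed as higher and 0 as lower, 0 genes passed in all, and 0 and 0 in the pathway lists. There 3572 genes and 25 collagens had an unadjusted p under 0.05, against 4953 and 29 with loess, 33 of 39 collagens were below 0, 1 collagen was 1.5-fold higher on both arrays, and the fibrillar and type VI medians were -0.455 and -0.796. The type VI median was -0.977 from processed signals, -0.636 with no filter and -0.834 with the filter on both channels. With no filter the FACIT median was 0.00821 and that of the remaining collagens -0.433. With the mean of a gene's probes 1 collagen was 1.5-fold higher on both arrays and the transmembrane median was -0.0243. At an adjusted p of 0.01, 7 collagens were lower, 378 genes passed, and the pathway lists had 1 higher and 10 lower; at 0.1, 2691 genes passed. At 2-fold on both arrays 1 collagen was higher and 3 lower. From 1 array at a time, with no test, the medians ranged from -0.350 to -0.330 (fibrillar), -0.480 to -0.272 (basement membrane), -0.239 to -0.112 (FACIT), -0.750 to -0.685 (type VI), -0.105 to -0.0743 (transmembrane) and -1.28 to -0.800 (remaining), and 1.5-fold counts were 2 and 2 higher and 11 to 16 lower. The calls of Col1a2, Col24a1, Col2a1 and Col5a2 held in 8, 9, 9 and 10 of 14 settings. These include the main fit at adjusted p thresholds of 0.01 and 0.1, and a gene called at 0.05 passes at 0.1 by necessity. The causes were not tested. Each ratio pairs the 2 cultures of an array, and the separate-channel model with the array as a block gave 2 collagens higher and 19 lower.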
